A study of Homo sapiens with 5 samples.

Results

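The kidney lineage transcription factors PAX2, PAX8, LHX1, EMX2 and WT1 and the tubule surface antigens CD24, PROM1, ANPEP and MME, 9 genes in all, were followed in 3 related human renal cell carcinoma lines. They were chosen by symbol, and all 26 probe sets that the platform table gives to 1 of these symbols alone were used, of 54613 probe sets on the array without its controls. RNA of the lines was hybridised to 5 Affymetrix expression arrays. LM2, the line of lung-metastatic generation 2, had 2 biological replicates, LM1, of lung-metastatic generation 1, had 1 array, and SN12C, the parental line labelled as non-metastatic, had 2 arrays of biological replicates. No treatment or genetic change is given for any line. The comparison asks which transcripts differ between the parent and its more metastatic derivatives. No label says how the biological replicates were grown, so every p-value is about the spread among these 5 arrays only, and the spread of LM1 is taken from the other lines.

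In the developing kidney, PAX2 and PAX8 are paired-box transcription factors that act from the earliest nephric duct onward, where they switch on LHX1, a LIM-homeobox factor needed for duct and nephron formation. EMX2 is a homeobox factor of the ureteric bud, and WT1 is a zinc-finger factor of the metanephric mesenchyme whose expression in the adult kidney narrows to podocytes. PAX8 usually stays on in renal cell carcinoma and serves pathologists as a marker of kidney origin. CD24, a small glycosylated protein held in the membrane by a lipid anchor, and PROM1, the pentaspan protein CD133, together mark tubular cells with progenitor properties. ANPEP (aminopeptidase N, CD13) and MME (neprilysin, CD10) are peptidases of the proximal tubule brush border.

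The arrays were not equally alike. Over the 15024 genes tested through 1 probe set each, the LM2 replicates correlated at r = 0.997 and the SN12C replicates at r = 0.971, and SN12C replicate 2 with the LM2 arrays at r = 0.980 and 0.983, all across genes, which do not count as replicates. The tested probe sets stood a median of 0.07 log2 units apart between the LM2 replicates and 0.28 between the SN12C replicates. The control probe sets for beta-actin gave 3.43 log2 units more at the 3' than at the 5' end in LM1, against 0.07 to 0.47 in the other arrays, and the part of this gap in the LM1 values was not tested.

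Signals are deposited log2 values, and a probe set was taken as at background in a line where all its arrays lay below 6.03, the 40th percentile of all values. There were 16 of the 26 that reached this level on all 5 arrays, against 55.4% of all probe sets, and 6 lay below it on all 5, against 35.5%. PROM1 and EMX2, each with a single probe set, were at background in all 3 lines. PAX8, WT1, ANPEP and MME each had at least 1 probe set well above it on every array. PAX2 and LHX1 lay close to the limit: at the 50th percentile, 6.54, neither gene had a value over it on any array. A signal near background gives no level of expression, and levels of different probe sets were not compared with each other. The limit is a percentile of all values, so a signal over it does not by itself show that a gene was expressed.

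**Figure D1:**
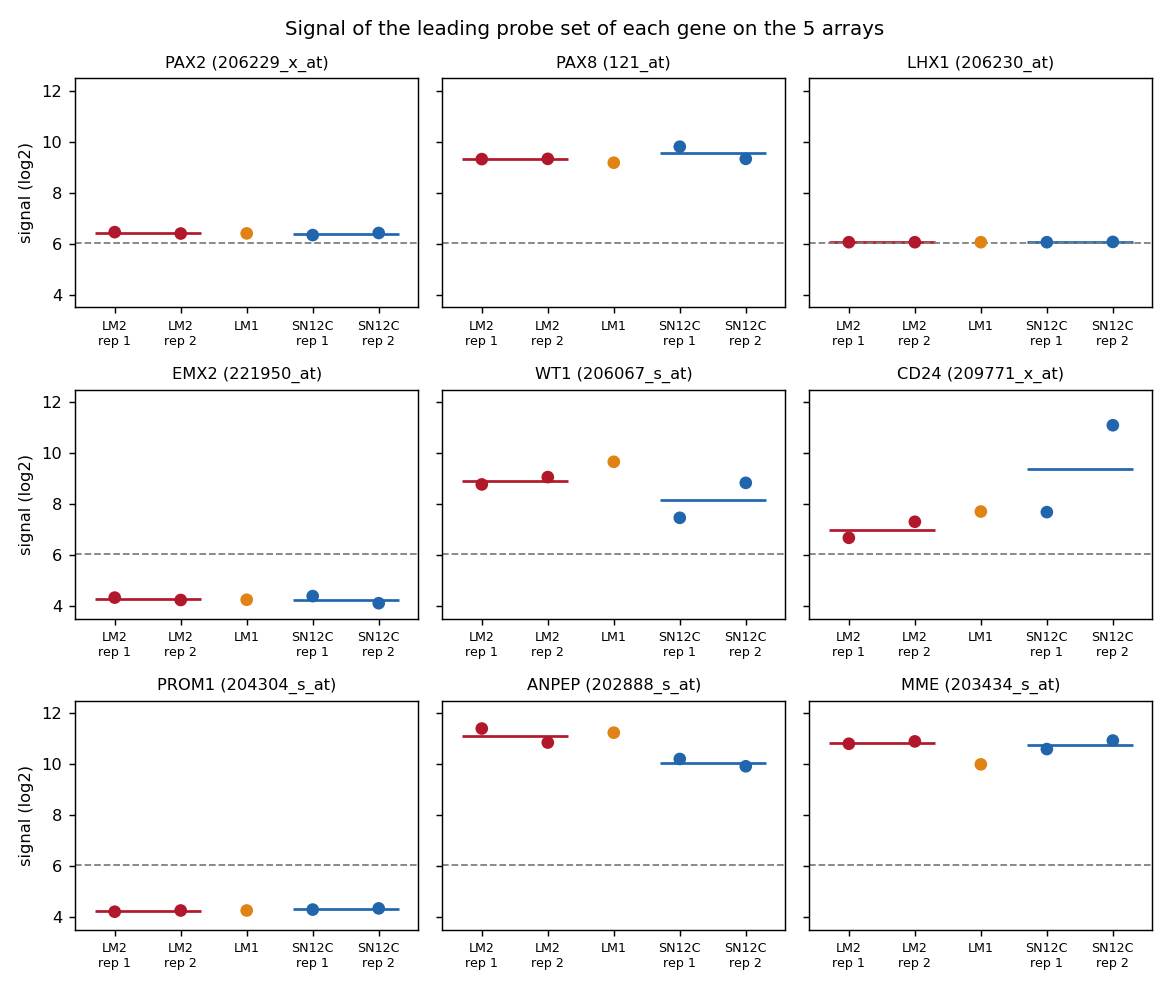
Log2 signal of the leading probe set (highest mean) of each of the 9 genes on the LM2 (red), LM1 (orange) and SN12C (blue) arrays, with horizontal bars at the means of the paired arrays and a dashed line at 6.03, the 40th percentile of all values. EMX2 and PROM1 lie below the line on all 5 arrays, and CD24 stands at 11.10 on SN12C replicate 2.

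PAX8, on chromosome 2, was above background on every array of the 3 lines. Its leading probe set, 121_at, read 9.33 and 9.34 in LM2, 9.19 in LM1, and 9.82 and 9.34 in SN12C. Both LM2 values lay at the level of SN12C replicate 2, and SN12C replicate 1 was the highest of the 5. The difference between LM2 and SN12C was -0.24 ± 0.20 log2 units (SE) and did not pass (limma, adjusted p = 0.679). Without SN12C replicate 1 it was -0.01, and without SN12C replicate 2 it was -0.48 (adjusted p = 0.0321), in a fit whose spread comes from the LM2 pair alone. The probe sets 209552_at, 213917_at and 221990_at showed the same order within SN12C, replicate 1 being higher, with LM2 minus SN12C differences of -0.19, -0.11 and -0.34. The probe sets 207923_x_at, 207921_x_at and 207924_x_at, whose suffix marks probes shared with other transcripts, gave 0.32, 0.04 and 0.23. By 207924_x_at, SN12C replicate 1 read 5.91, below 6.03, so the size of that difference is uncertain. The probe set 214528_s_at was at background on all 5 arrays. The direction of the small LM2 difference therefore depended on the probe set.

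In LM1, PAX8 read lowest of the 5 arrays by 121_at, by 209552_at and by 207921_x_at. The last of these read 6.75 and 6.70 in LM2, 6.09 in LM1, and 6.68 and 6.70 in SN12C, a difference between LM1 and SN12C of -0.60 ± 0.09 (limma, adjusted p = 0.0921), and between LM2 and LM1 of 0.64 ± 0.09 (adjusted p = 0.114). By 213917_at, LM1 lay between the SN12C replicates. PAX8-AS1, the RNA gene that overlaps PAX8 on the opposite strand, was above background too: its probe set 227474_at read 9.87 and 9.80 in LM2, 10.02 in LM1, and 10.10 and 10.23 in SN12C, LM2 lying below both SN12C arrays, with a difference of means of -0.33 ± 0.09 (limma, adjusted p = 0.468). Its other probe sets gave 0.08 and -0.51.

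PAX2, the paralogue of PAX8, on chromosome 10, lay near or below the background limit. The probe set 206228_at read 5.73 and 5.73 in LM2, 5.86 in LM1, and 5.87 and 5.41 in SN12C, below 6.03 on every array and with the same value on both LM2 arrays. The probe set 206229_x_at read 6.46 and 6.40 in LM2, 6.41 in LM1, and 6.34 and 6.43 in SN12C, a spread of 0.12 over all 5 arrays, with an LM2 minus SN12C difference of 0.05 ± 0.08 (limma, adjusted p = 0.79). LHX1, on chromosome 17, read 6.06 on both LM2 arrays, on LM1 and on SN12C replicate 1, and 6.08 on SN12C replicate 2. These values are just over the limit, 4 of the 5 are identical as deposited, and no line stood apart. Of the 26 probe sets of the 9 genes, 11 held such a tie between arrays, as did 53.3% of all probe sets, and 40.9% of those tested. The origin of the ties is not stated. EMX2, also on chromosome 10, read 4.33 and 4.23 in LM2, 4.24 in LM1, and 4.38 and 4.11 in SN12C, all far below the limit. EMX2OS, the RNA gene on the strand opposite EMX2, read 6.44 and 6.51 in LM2, 6.44 in LM1, and 6.61 and 6.34 in SN12C by 232531_at, its leading probe set. By 230963_at it read 6.48 and 6.61 in LM2, 6.44 in LM1, and 6.28 and 6.36 in SN12C. There LM2 and LM1 lay above both SN12C arrays, with LM2 minus SN12C at 0.23 ± 0.09 (limma, adjusted p = 0.583).

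WT1, on chromosome 11, was above background in every line, and its arrays varied more than those of PAX8. The leading probe set, 206067_s_at, read 8.77 and 9.06 in LM2, 9.66 in LM1, and 7.46 and 8.83 in SN12C. LM1 was the highest of the 5 arrays and SN12C replicate 1 the lowest, while SN12C replicate 2 lay between the LM2 replicates. LM2 averaged 8.92 ± 0.20 and SN12C 8.15 ± 0.97 (SD, n = 2 each), a difference of 0.77 ± 0.56 log2 units (SE) that was smaller than the gap of 1.37 between the SN12C replicates (limma, adjusted p = 0.679). It was 1.46 without SN12C replicate 2 and 0.08 without SN12C replicate 1. LM1 stood 1.51 ± 0.68 above the SN12C mean (adjusted p = 0.317).

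The second WT1 probe set, 216953_s_at, placed LM1 at the other end. It read 7.32 and 7.57 in LM2, 6.62 in LM1, and 6.94 and 7.30 in SN12C, so that LM1 was the lowest array, at -0.50 ± 0.23 from the SN12C mean (limma, adjusted p = 0.318), and both LM2 arrays lay above both SN12C arrays, by 0.32 ± 0.19 as a difference of means (adjusted p = 0.679). The direction of LM1 for WT1 therefore differed between its probe sets, on the array with the large gap between 3' and 5' control signals. WT1-AS, on the strand opposite WT1, read 6.43 and 6.43 in LM2, 6.93 in LM1, and 6.42 and 6.31 in SN12C, and was highest on the LM1 array (LM1 minus SN12C 0.56 ± 0.10, adjusted p = 0.107).

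CD24, on chromosome 6, was the member that varied most, and it varied most within the parental line. The leading probe set, 209771_x_at, read 6.67 and 7.31 in LM2, 7.71 in LM1, and 7.68 and 11.10 in SN12C. SN12C replicate 2 stood 3.41 log2 units above SN12C replicate 1, a factor of 10.7, while the other 4 arrays lay within 1.03 of each other. In such bulk RNA, fewer cells with the transcript and less of it per cell cannot be told apart. Among the 15024 genes tested through their leading probe set, CD24 was the only one with SN12C replicate 2 above replicate 1 by that much. Over all 33376 tested probe sets there were 5 with such a gap, among them 209771_x_at and 216379_x_at of CD24 but also some outside CD24. The summed log2 signal of the leukocyte, endothelial, lung epithelial and erythroid marker lists was highest on SN12C replicate 1. That of the fibroblast list was highest on LM2 replicate 1. Such sums of log2 values, most of them with genes at background, cannot show a small part of other cells. A part of other cell types in the CD24 gap was not tested. By the CD24 probe sets above background on both SN12C arrays, 209771_x_at, 216379_x_at and 208651_x_at, replicate 2 stood above replicate 1 by 3.41, 3.42 and 2.36. The other CD24 probe sets were also highest on SN12C replicate 2, but their replicate 1 lay below 6.03, so the size of their gaps is uncertain. Of these, 208650_s_at read 3.90 and 4.64 in LM2, 5.20 in LM1, and 5.21 and 8.95 in SN12C, above background on SN12C replicate 2 alone. The probe sets 266_s_at and 209772_s_at were likewise above 6.03 on that array alone, and 216379_x_at read 6.34 and 6.80 in LM2, 7.20 in LM1, and 7.20 and 10.62 in SN12C. The gene table lists 5 pseudogenes of CD24, and all 6 probe sets are of types that can bind several transcripts, so the signal is uncertain as to copy.

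**Figure D2:**
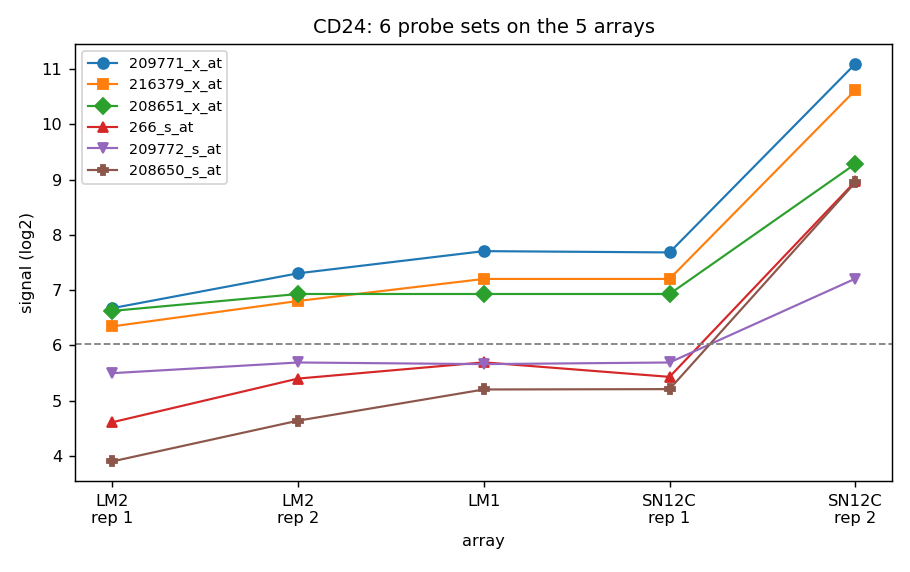
Log2 signal of the 6 probe sets of CD24 on the 5 arrays, with lines joining the values of 1 probe set and a dashed line at 6.03, the 40th percentile of all values. Every probe set is highest on SN12C replicate 2, and LM2 replicate 1 is the lowest array for each.

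Against this spread the LM2 difference of CD24 could not be called. LM2 averaged 6.99 ± 0.45 and SN12C 9.39 ± 2.41 (SD, n = 2 each) by 209771_x_at, a difference of -2.40 ± 1.37 log2 units (SE; limma, adjusted p = 0.679). Both LM2 arrays lay below both SN12C arrays by this probe set and by 216379_x_at, while by 208651_x_at LM2 replicate 2, LM1 and SN12C replicate 1 had the same value, 6.93. The difference was -0.69 without SN12C replicate 2 and -4.11 without SN12C replicate 1. LM1 lay 0.02 from SN12C replicate 1 by 209771_x_at and stood at -3.39 from SN12C replicate 2. PROM1, on chromosome 4, the antigen used together with CD24, read 4.21 and 4.26 in LM2, 4.26 in LM1, and 4.29 and 4.34 in SN12C, near the bottom of the scale on every array including SN12C replicate 2.

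ANPEP, on chromosome 15, read higher on every lung-derived array than on either array of the parent, although the difference did not pass the test over all probe sets. Its leading probe set, 202888_s_at, read 11.41 and 10.86 in LM2, 11.24 in LM1, and 10.21 and 9.92 in SN12C. All 3 arrays of the lung-derived lines lay above both SN12C arrays, and LM1 lay between the LM2 replicates. LM2 averaged 11.13 ± 0.39 and SN12C 10.07 ± 0.20 (SD, n = 2 each), a difference of 1.06 ± 0.25 log2 units (SE), or 2.09-fold. Leaving out each replicate in turn gave 0.79 to 1.34, always with LM2 higher. LM1 stood 1.18 ± 0.31 above SN12C, or 2.26-fold. Neither difference passed over all probe sets (limma, adjusted p = 0.434 for LM2 and 0.167 for LM1). The unadjusted p for LM2 was 0.0217, and 9.52% of all tested probe sets had one under 0.05. Both comparisons use the same SN12C arrays. The other ANPEP probe sets, 234576_at and 234458_at, were at background in every line and gave LM2 minus SN12C differences of 0.00 and 0.02.

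ANPEP is transcribed from separate starts in myeloid and in epithelial cells. RefSeq (GRCh38.p14) gives 2 starts for it, and the 250 bases before each are shown because the signal cannot tell which start was used. Capitals mark GTTAAT, the half-site bound by the HNF1 factors of tubule and gut epithelium, searched on both strands. It was found 77 bases before the downstream start and not before the upstream one, and 6.23% of 35116 such windows of annotated starts hold it. The sequences are on the minus strand, at chr15:89814853-89815102 and chr15:89806629-89806878.
ANPEP upstream start: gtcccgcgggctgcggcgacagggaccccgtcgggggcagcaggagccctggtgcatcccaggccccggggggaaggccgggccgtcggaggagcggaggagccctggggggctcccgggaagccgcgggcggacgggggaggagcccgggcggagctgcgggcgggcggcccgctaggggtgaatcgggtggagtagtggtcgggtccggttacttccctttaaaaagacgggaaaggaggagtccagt
ANPEP downstream start: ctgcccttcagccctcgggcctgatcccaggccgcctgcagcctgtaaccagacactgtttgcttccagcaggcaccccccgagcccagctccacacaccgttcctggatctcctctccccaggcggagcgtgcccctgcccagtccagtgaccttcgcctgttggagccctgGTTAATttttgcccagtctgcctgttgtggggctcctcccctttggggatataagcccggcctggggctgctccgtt
A match of these letters is a description of the sequence, not a measured binding site. No window before a start of PAX2, PAX8, EMX2, WT1, CD24, PROM1 or MME held GTTAAT, and none of these windows, those of ANPEP included, held GCGGGGGCG, a motif of WT1 and EGR1, or GTCACGC, a core of the paired-domain motif, which 4.72% and 2.20% of all windows hold.

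MME, on chromosome 3, the other brush border peptidase, read high on all 5 arrays. Its leading probe set, 203434_s_at, read 10.81 and 10.90 in LM2, 9.998 in LM1, and 10.60 and 10.93 in SN12C. Both LM2 arrays lay between the SN12C values, and the LM2 minus SN12C difference was 0.09 ± 0.15 (limma, adjusted p = 0.802). LM1 was the lowest array, at -0.77 ± 0.19 from SN12C (adjusted p = 0.152), with LM2 minus LM1 at 0.86 ± 0.19 (adjusted p = 0.159). The second probe set, 203435_s_at, read 10.44 and 10.64 in LM2, 10.23 in LM1, and 10.61 and 10.49 in SN12C, with LM1 lowest again at -0.32 from SN12C and LM2 at 0.00.

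**Figure D3:**
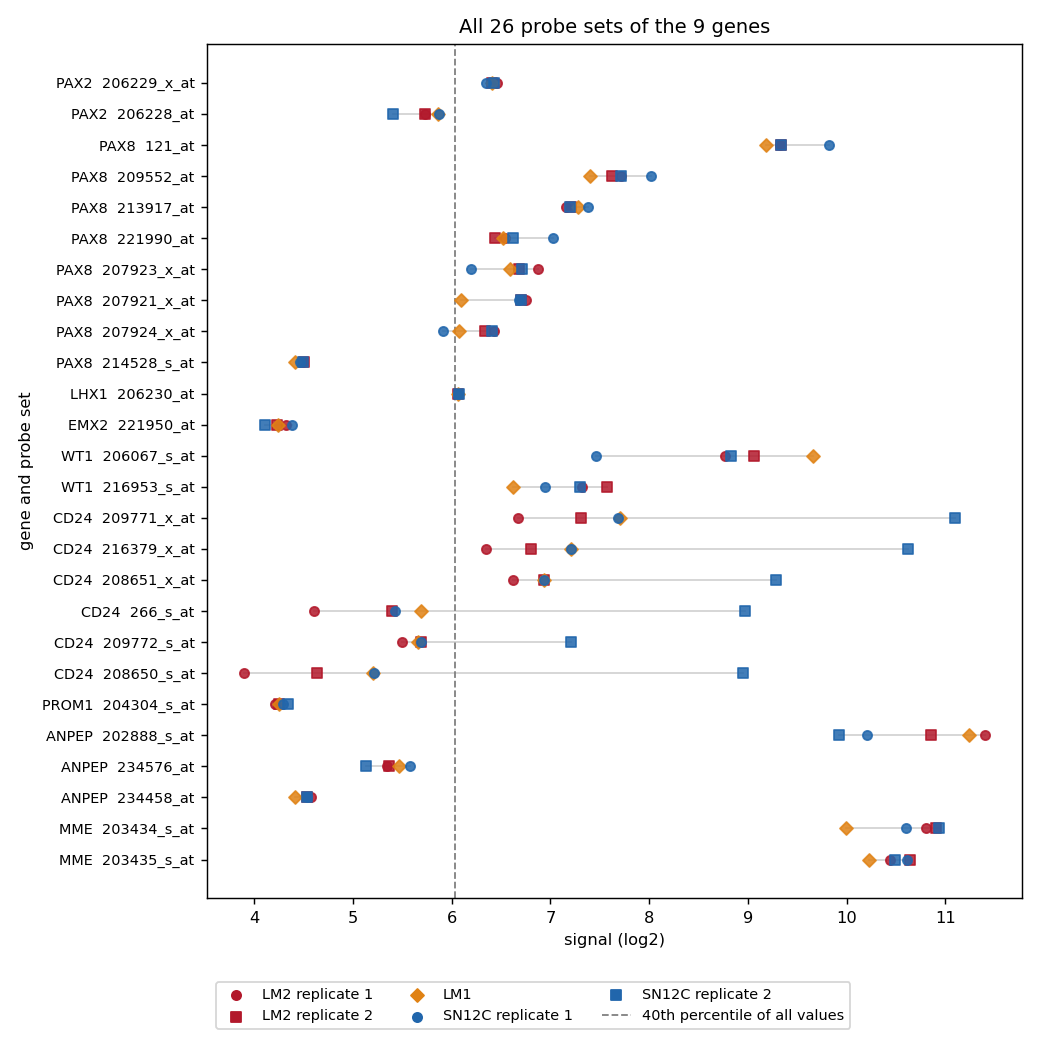
Log2 signal of all 26 probe sets of the 9 genes on each of the 5 arrays, with a dashed line at 6.03, the 40th percentile of all values. The widest spreads are those of CD24, up to 5.05 log2 units for 208650_s_at, and the narrowest that of LHX1.

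Taken over the 17 probe sets of 7 genes that reached 6.03 on at least 2 arrays, no difference between lines passed the test. In LM2 against SN12C, 0 of the 17 passed limma at an adjusted p of 0.05, as did 0% of 33376 probe sets tested, and the lowest adjusted p among them was 0.434, for ANPEP. At an unadjusted p under 0.05 there was 1 of 17, against 9.52% of all. The arrays did not overlap for 5 of the 17, with LM2 above for ANPEP and for WT1 by 216953_s_at, and below for CD24 by 209771_x_at and 216379_x_at and for PAX8 by 221990_at. That is 2 above, against 23.7% of all tested probe sets, and 3 below, against 13%, or 36.7% in either direction. A difference of at least 1 log2 unit was seen for 4 of 17, of which 3 belong to CD24, against 3.05% of all. The SN12C replicates themselves stood at least 1 log2 unit apart for 4 of the 17, against 6.48% of all, 3 of them for CD24 and 1 for WT1. The median LM2 minus SN12C difference of the 17 was 0.00, and that of all tested probe sets 0.03. These counts are over probe sets that passed a filter, and several read the same gene.

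In LM1 against SN12C, 0 of the 17 passed the adjusted limit, as did 0% of all, with a lowest adjusted p of 0.0921, for PAX8 by 207921_x_at. At an unadjusted p under 0.05 there were 3, against 23.2% of all. The LM1 array lay above both SN12C arrays for 2 of the 17, against 38.7% of all tested probe sets, and below both for 7, against 27.7%. The 7 were 3 further probe sets of PAX8 with 207921_x_at, both of MME and WT1 by 216953_s_at. In LM2 against LM1, 0 of 17 passed, as did 0% of all, and 3 had an unadjusted p under 0.05, against 20.9% of all. A difference of at least 1 log2 unit was seen for 0 of 17, against 9.35% of all. In LM1 against SN12C it was seen for 5, against 11.8%. Among the 5 were the CD24 probe sets 209771_x_at, 216379_x_at and 208651_x_at, and the others read ANPEP and WT1. For these CD24 probe sets, LM1 lay 0.02, 0 and 0 from SN12C replicate 1, and at -3.39, -3.42 and -2.36 from replicate 2. The CD24 differences therefore rest on SN12C replicate 2. An exact permutation test of 2 arrays against 2 cannot go below p = 0.333, two-sided.

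**Figure D4:**
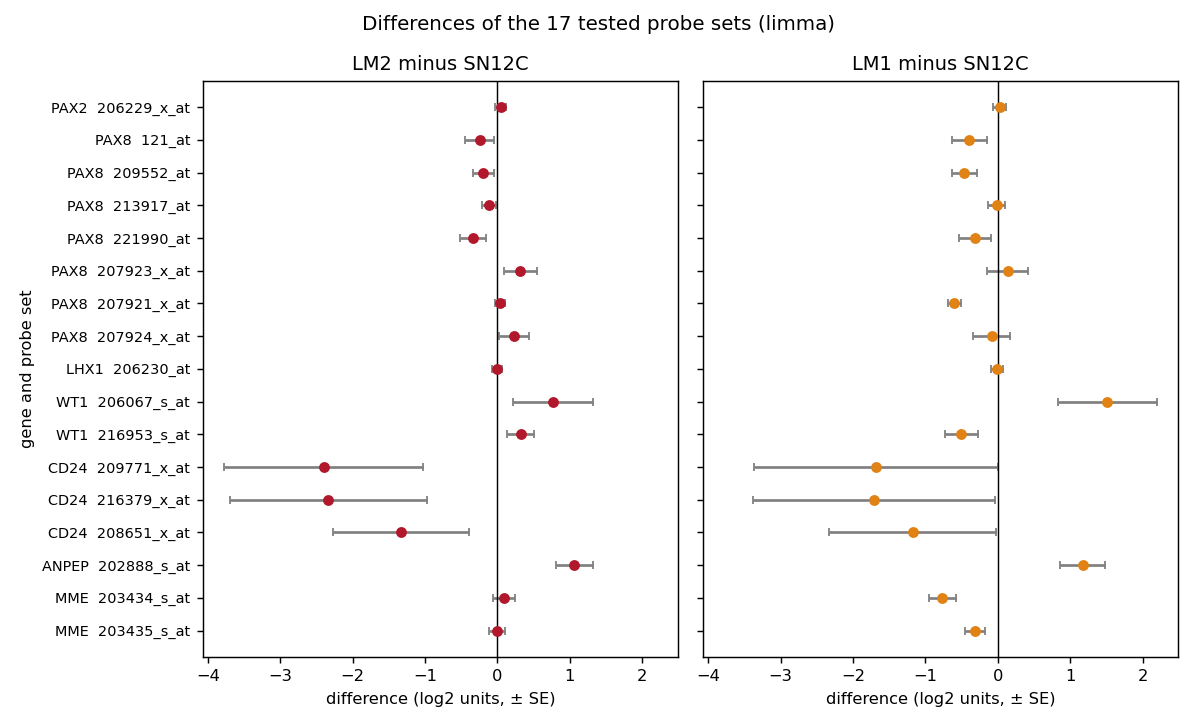
Differences in log2 units with their standard errors from limma for the 17 tested probe sets, LM2 minus SN12C on the left and LM1 minus SN12C on the right. ANPEP lies near 1 in both panels, CD24 has the longest error bars, and WT1 by 206067_s_at and 216953_s_at lies on opposite sides of 0 in LM1.

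Other regulators of kidney development, from a list of 33 genes written from general knowledge, lay partly above the background limit. Of 25 with a named probe set, 13 were above 6.03 on all 5 arrays and 9 below it on all 5, against 72.4% and 21.4% of all genes read by their leading probe sets. IRX1, a homeobox gene of the nephron segments, read 12.12 and 12.12 in LM2, 12.54 in LM1, and 12.31 and 11.98 in SN12C, and its relative IRX3 read 9.93 and 9.97 in LM2, 10.28 in LM1, and 9.80 and 9.74 in SN12C. GATA3, a factor of the nephric duct and collecting duct, read 12.10 and 11.95 in LM2, 12.00 in LM1, and 11.38 and 11.81 in SN12C by 209604_s_at. Its other probe sets were highest on LM1. By 209603_at it read 8.32 and 8.18 in LM2, 9.22 in LM1, and 7.95 and 7.95 in SN12C. There LM1 minus SN12C was 1.27 ± 0.11 (limma, adjusted p = 0.0786), and by 209602_s_at it was 0.92. In LM2 against SN12C 0 of 16 tested passed, 5 had LM2 arrays above and 3 below both SN12C arrays, against 25.3% and 14.1% of all tested genes, and the median difference was -0.01, against 0.03 for all tested genes.

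The largest difference in that list was that of GFRA1, the co-receptor through which GDNF signals to RET in the ureteric bud. It read 9.05 and 8.85 in LM2, 9.38 in LM1, and 7.34 and 5.97 in SN12C by 227550_at. The other probe sets, 205696_s_at and 230163_at, also had all lung-derived arrays above both SN12C arrays, at 8.80 and 8.47 in LM2, 8.17 in LM1, and 5.71 and 5.53 in SN12C by the first of them. The LM2 minus SN12C differences of the 3 probe sets were 2.29 ± 0.55, 3.01 ± 0.16 and 2.45 ± 0.41, and none passed (limma, lowest adjusted p = 0.328). Each probe set had an SN12C array below 6.03, both arrays for 205696_s_at, replicate 2 for 227550_at and replicate 1 for 230163_at, so the size of all these differences is uncertain. IRX2 followed with 10.24 and 10.21 in LM2, 10.39 in LM1, and 8.53 and 9.70 in SN12C, while its second probe set gave 0.09. MECOM, a zinc-finger regulator, had LM2 below both SN12C arrays by 221884_at, at -0.67 ± 0.18 (limma, adjusted p = 0.463), with LM2 replicate 2 under 6.03 and its other probe sets not tested. RET itself lay between 7.28 and 7.75 on all 5 arrays by 205879_x_at, the leading one of its 3 probe sets. The values of the others are not given here.

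**Figure D5:**
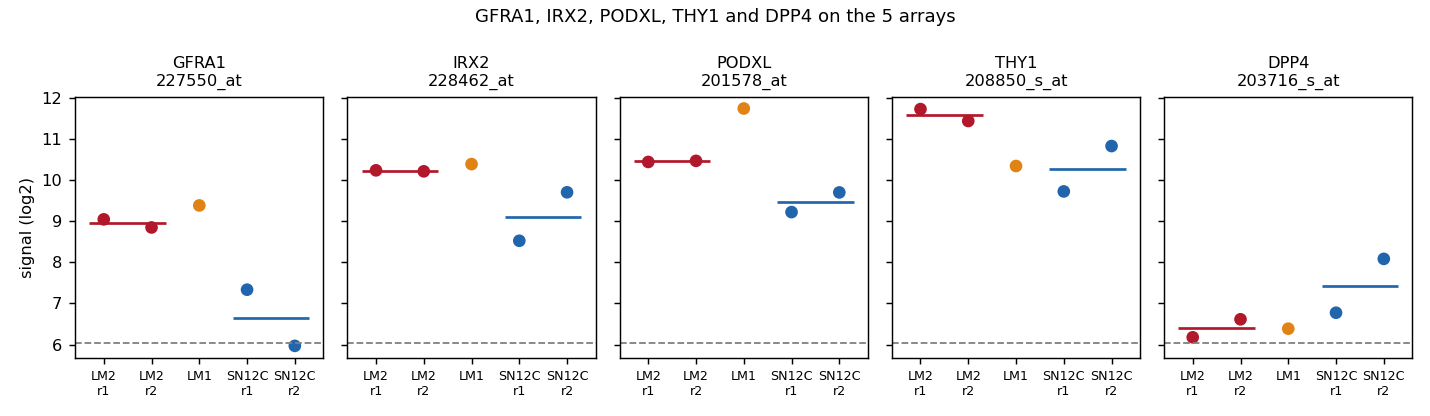
Log2 signal of GFRA1, IRX2, PODXL, THY1 and DPP4 on the LM2 (red), LM1 (orange) and SN12C (blue) arrays, with bars at the means of paired arrays and a dashed line at 6.03. LM2 lies above both SN12C arrays for the first 4 genes and below them for DPP4.

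Markers of differentiated tubule segments were partly above the 6.03 limit, as were the markers of other cell types given below. Of 21 proximal tubule genes 10 were above 6.03 on all 5 arrays and 6 below it on all 5, against 72.4% and 21.4% of all genes. The 6 included the endocytic receptors LRP2 and CUBN and the injury marker HAVCR1. Of 19 distal tubule and collecting duct genes, 9 were above and 5 below, against the same shares. In LM2 against SN12C 0 of 13 and 0 of 11 tested genes passed, as did 0% of all tested probe sets. Their median differences were 0.03 and -0.14, against 0.03 for all tested genes. KHK, ketohexokinase of the proximal tubule, read 8.24 and 8.23 in LM2, 8.88 in LM1, and 7.81 and 8.29 in SN12C by 211028_s_at, and its other probe set gave an LM2 minus SN12C difference of -0.09. Of 9 podocyte genes 8 were above 6.03 on all 5 arrays, against 72.4% of all genes, and 0 of the 8 tested passed. Among them PODXL, podocalyxin, read 10.44 and 10.47 in LM2, 11.74 in LM1, and 9.22 and 9.70 in SN12C, with LM2 minus SN12C at 0.99 ± 0.20 (limma, adjusted p = 0.408) and LM1 minus SN12C at 2.28 ± 0.25 (adjusted p = 0.0809). PTPRO, a receptor phosphatase of podocyte foot processes, read 12.59 and 11.95 in LM2, 10.11 in LM1, and 12.10 and 12.69 in SN12C by 211600_at, lowest on the LM1 array, but its other probe sets, 1554199_at and 208121_s_at, were at background on all 5 arrays.

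Among 17 further membrane peptidases with a probe set, 0 of the 12 tested passed in LM2 against SN12C, 4 had LM2 below both SN12C arrays and 0 above, against 14.1% and 25.3% of all tested genes, and the median difference was -0.05. DPP4 (CD26), another brush border peptidase, had the largest difference of them. By 203716_s_at it read 6.18 and 6.62 in LM2, 6.39 in LM1, and 6.78 and 8.09 in SN12C, highest on SN12C replicate 2, and 5.90 and 6.05 in LM2, 6.49 in LM1, and 6.85 and 7.26 in SN12C by 203717_at. These LM2 minus SN12C differences were -1.03 ± 0.55 and -1.08 ± 0.19 (limma, adjusted p = 0.679 and 0.378). Of the 17 peptidases, 11 were above 6.03 on all 5 arrays and 5 below it on all 5, against 72.4% and 21.4% of all genes. Among those below were ENPEP, MEP1A and MEP1B of the brush border. Of 16 progenitor and stem-associated surface antigens, 13 were above 6.03 on all 5 arrays, against 72.4% of all genes, and EPCAM, VCAM1 and KIT below it on all 5. Of the 13 tested, 0 passed, 5 had LM2 above and 3 below both SN12C arrays, against 25.3% and 14.1% of all tested genes, and the median difference was 0.00. CD44, a hyaluronan receptor, read between 13.09 and 13.30 on all 5 arrays by 212063_at, its leading probe set, but its probe sets differed in LM1. By 210916_s_at it read 12.21 and 11.99 in LM2, 8.51 in LM1, and 11.19 and 11.99 in SN12C, with LM1 minus SN12C at -3.08 ± 0.41 (limma, adjusted p = 0.0877), while 1557905_s_at, 217523_at and 229221_at gave -1.77, -1.67 and 0.91. THY1, an anchored glycoprotein of mesenchymal and neural cells, read 11.73 and 11.44 in LM2, 10.34 in LM1, and 9.73 and 10.83 in SN12C by 208850_s_at, with LM2 minus SN12C at 1.31 ± 0.46 (limma, adjusted p = 0.547). By 208851_s_at and 213869_x_at, LM2 minus SN12C was 1.18 and 1.02. These probe sets differed in LM1, which lay between the SN12C arrays by 208850_s_at. By 208851_s_at and 213869_x_at it lay above both, with LM1 minus SN12C at 1.27 and 1.45. FZD7, a WNT receptor, had LM2 above both SN12C arrays by both its probe sets, at 0.85 ± 0.14 and 0.59 ± 0.08, and neither passed (limma, adjusted p = 0.372 and 0.342). For NT5E (CD73), the ectonucleotidase, LM2 lay above both SN12C arrays by 203939_at, at 0.70 ± 0.23, and by 1553995_a_at, at 0.97 ± 0.37 (limma, adjusted p = 0.52 and 0.58), while the arrays overlapped by 227486_at, at -0.27, and by 1553994_at, at 0.11.

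Markers of other cell types were read on the same arrays. Above 6.03 on all 5 arrays were 5 of 7 leukocyte genes, 4 of 6 endothelial genes, 5 of 7 lung epithelial genes, 6 of 8 fibroblast genes and 3 of 3 erythroid genes, against 72.4% of all genes, with CD79A of B cells between 7.93 and 8.35 and SFTPC of lung epithelium between 8.05 and 8.29. Below it on all 5 arrays were PTPRC of leukocytes, CDH5 of endothelium, SFTPD and SCGB1A1 of lung epithelium and LUM and FAP of fibroblasts. The summed log2 signal of the 8 fibroblast genes was 58.5 and 58.4 in LM2, 57.7 in LM1, and 53.9 and 56.2 in SN12C, in the same direction as ANPEP, and its part in the ANPEP difference was not tested. Within that list COL3A1 read 10.94 and 11.11 in LM2, 10.04 in LM1, and 6.98 and 8.98 in SN12C by 215076_s_at. Its LM2 minus SN12C difference was 3.04 ± 0.79 (limma, adjusted p = 0.458). By leading probe sets, only 1 tested fibroblast gene differed by at least 1 log2 unit. COL1A1 was counted there through 217430_x_at, at -0.01. Its probe set 1556499_s_at gave 2.55 ± 0.25 (limma, adjusted p = 0.328) and 202310_s_at gave 0.99, both with SN12C at background. By 202312_s_at the difference was -0.07, and 202311_s_at was at background in every line. The median difference of the 6 tested fibroblast genes by leading probe sets was 0.09, and for 4 of them the LM2 and SN12C arrays overlapped. The corresponding sums were 45.7 and 46.0 in LM2, 46.0 in LM1 and 47.6 and 46.0 in SN12C for 7 leukocyte genes, and 47.8 and 47.8 in LM2, 47.5 in LM1 and 49.1 and 47.8 in SN12C for 7 lung epithelial genes.

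Likeness of pattern was described by Pearson's r over the 5 arrays, among 3231 other genes whose leading probe set ranged over at least 1 log2 unit. With so few arrays, shared by all genes, high values are common, and r is given as a description. WT1 by 206067_s_at was most like HMGN3, HTATIP2 and SLC19A2 (r = 1.00, 0.999 and 0.999), and 626 genes had r over 0.95. CD24 was most like TMEM131L, CTPS1 and VGLL3 (0.998, 0.998 and 0.995), with 28 genes over 0.95. CTPS1, the enzyme of CTP synthesis, read 10.83 and 11.07 in LM2, 11.29 in LM1, and 11.17 and 12.59 in SN12C, highest on SN12C replicate 2 as CD24 was. ANPEP was most like TGFB1I1, AFAP1L2 and ARHGAP29 (0.997, 0.984 and 0.983), with 21 genes over 0.95. TGFB1I1, a focal adhesion adaptor, read 10.81 and 10.30 in LM2, 10.74 in LM1, and 9.39 and 9.10 in SN12C. The other 6 genes ranged over less than 1 log2 unit or were at background, and were not compared. The 20 nearest tested genes on the chromosome had median LM2 minus SN12C differences of 0.11 around ANPEP, 0.03 around CD24 and 0.05 around WT1, and around CD24 their SN12C replicate 2 minus replicate 1 median was 0.29, with a highest value of 1.24.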

How the data were processed

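The values used are the log2 signals deposited by the authors for each probe set, which per the submitters' processing notes come from RMA and Partek, in versions not stated. RMA normalizes the arrays to each other, so an array-wide difference in total signal no longer shows. They were used untransformed, and the number of arrays limits their precision. Arrays were grouped by the labels.

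A platform table gave 41097 of 54675 probe sets 1 gene, and only these were named; 62 controls were left out. Probe sets at or over the 40th percentile (6.03) on at least 2 arrays, 33376 in all, were fitted with limma 3.58.1 in R 4.3.3 (lmFit and eBayes, 1 mean per line over 5 arrays, 2 residual and 1.21 prior degrees of freedom), with Benjamini-Hochberg adjustment at 0.05 over all of them. The leading probe set of a gene is that with the highest mean. Where several probe sets read 1 gene, all were given for the 9 genes. From each other list, up to 3 genes with the highest mean and up to 3 with the largest LM2 minus SN12C difference without overlap could be named, and for likeness the 3 with the highest r. RET and the markers below 6.03 on all 5 arrays were picked after their values were seen. The 9 genes and all lists were chosen with earlier results of these data known. In simulated data for the LM2 and SN12C comparison, with 200 of 33376 probe sets changed and each spread drawn from the fitted prior, the fit recovered 0% of those changed by 1 log2 unit, 14.9% by 2 and 66.7% by 4, with 3 false calls. With each probe set's fitted spread it recovered 1.49%, 77.6% and 90.9%, with 2 false calls. The simulation gave all arrays of a probe set the same spread. The SN12C replicates lay further apart than the LM2 replicates (medians of 0.28 and 0.07), so these rates may not hold for the data. The labels state no pairing of the arrays by replicate number. The correlation of deviations was 0.09 over 2 pairs, too few to show whether the arrays were paired. Promoter sequences and gene order came from RefSeq tables of GRCh38.p14. The filter, the probe sets used, the normalization, the eBayes options and the arrays fitted were varied, each replicate was left out in turn, and a replicate block was tried. Figures were drawn with matplotlib 3.10.9.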

Additional observations from a re-analysis of the deposited data

How the results depend on the processing

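No probe set passed in any of the 3 comparisons, and this held without the filter, with a filter at the 60th percentile, with 1 probe set per gene, without shared probe sets, after centring, with the trend and robust options, and for LM2 against SN12C with only those arrays. Quantile normalization again gave 1171 calls for LM1 minus SN12C and 325 for LM2 minus LM1, none of them a leading probe set of the 9 genes. Leaving out 1 replicate gave 0 to 8105 calls for LM2 minus SN12C, 0 to 10386 for LM1 minus SN12C and 0 to 5776 for LM2 minus LM1; the large counts came without an SN12C array, when the LM2 pair alone sets the spread (8105, 10386 and 5776 without SN12C replicate 2, and 0, 6379 and 5776 without SN12C replicate 1). PAX8 by 121_at passed only without SN12C replicate 2, at -0.48 in LM2 (limma, adjusted p = 0.0321) and -0.63 in LM1 (adjusted p = 0.0243). The replicate block, without LM1, gave 0 calls for LM2 minus SN12C and changed no call. At the 50th percentile 10 of the 26 probe sets, not 16, were over the limit on all 5 arrays.

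Differences that changed sign were near 0 or rest on 1 array. LM2 minus LM1 for PAX2 was -0.00977 after quantile normalization and -0.0114 after centring, and LM2 minus SN12C for LHX1 was 0.0195 and 0.00848, with LM1 minus SN12C at 0.0388 and 0.0419. LM2 minus SN12C for MME was -0.0689 after quantile normalization. Leaving out 1 replicate gave -0.0802 to 0.255 for MME in LM2 minus SN12C, -0.0155 to 0.0664 for PAX2 and -3.39 to 0.0233 for CD24 in LM1 minus SN12C, and -0.00554 to 0.0495 for PAX2 and -0.39 to 0.16 for ANPEP in LM2 minus LM1. The cause of these changes was not tested.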
